A study of Mus musculus with 18 samples.

Results

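The genes described here are Abcg1, Abca1, Mylip, Srebf1, Scd1, Scd2, Fasn and Lpcat3, 8 of the 57180 genes in the count table, with roles in cholesterol export, lipoprotein uptake, and the synthesis of fatty acids and phospholipids or its control. Each symbol matched 1 row of the table. Abcg1 was chosen by its measured level, being among the largest falls with AOA, and the set was assembled with results of these libraries known. The comparison of AOA with Mock is therefore a description for all 8 genes, given without a test, and so is every comparison that uses the Mock or AOA libraries. Tests of the other genes come from the HT-DNA libraries and from AOA with aspartate, and Abcg1 is described without a test wherever AOA or its reversal is compared. Results of those libraries were known too when the set was assembled, so their p-values are not those of genes chosen beforehand. AOA with HT-DNA also repeats the treatment by which Abcg1 was chosen. All 8 genes passed the filter on low counts.

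LXRα (encoded by Nr1h3) and LXRβ (Nr1h2) are nuclear receptors that pair with RXR and are activated by oxysterols, which are oxidized derivatives of cholesterol. Their known targets include Abca1 and Abcg1, the transporters that export cholesterol to apolipoprotein A-I and to HDL; Mylip, a ubiquitin ligase that limits the uptake of lipoproteins; Lpcat3, which places polyunsaturated fatty acids into lysophospholipids; and Srebf1. Srebf1 encodes SREBP1, a factor that SCAP escorts from the endoplasmic reticulum to the Golgi for cleavage, which the INSIG proteins prevent by retaining SCAP, and whose targets include Fasn (fatty acid synthase) and the stearoyl-CoA desaturases Scd1 and Scd2.

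The RNA came from L929, a mouse fibroblast line of wild-type genotype per the labels, in 6 groups of 3 biological replicates. The Mock cultures carry the treatment label DMSO. AOA (aminooxyacetic acid, which blocks aminotransferases) was given at 0.5 mM from 1 h before stimulation, with or without 20 mM aspartate (Asp). HT-DNA (herring testis DNA, a ligand of cGAS) was transfected with Lipofectamine at 0.5 μg/ml for 6 h, alone, with AOA, or with AOA and aspartate. There was no group with aspartate alone. Whether the cultures without HT-DNA received the transfection reagent is not given in the sources used here, so HT-DNA and its delivery cannot be told apart.

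Libraries held 17901605 to 24057343 counts, and levels are given as CPM, which are counts per 1000000 counts after TMM scaling of library size. Of the 10 fibroblast markers, 9 passed the filter and Thy1 was under 0.1 CPM on average; their summed level, most of it Vim and S100a4, was 5560 to 6020 CPM in Mock, 6660 to 7220 CPM with HT-DNA and 5120 to 6770 CPM with HT-DNA plus AOA. Single markers moved both ways. From Mock to HT-DNA plus AOA the mean of Col1a2 went from 141.3 to 58.7 CPM, that of Pdgfrb from 225.2 to 92.9 CPM, that of Pdgfra from 65.4 to 26.7 CPM and that of Fn1 from 32.5 to 52.6 CPM. The part of these markers in the results was not tested. Leukocyte markers summed to at most 2.14 CPM in any library, with Ptprc, Adgre1 and Itgam at or near 0. The 3 libraries with HT-DNA plus AOA stood apart from each other, with a chi-square per degree of freedom of 18.2 to 67.0 between pairs (1 means counting error only), against 2.78 to 13.3 between replicates in the other groups. For the 8 genes, values that rest on this group are therefore also given without single libraries of it.

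Promoter sequences from RefSeq (GRCm38.p6, a build not known to be the one behind the counts) matched Abca1, Mylip, Srebf1, Fasn and Lpcat3. They are shown for Abca1 and Mylip, whose levels ran closely together over the libraries, and for Fasn, which ran with Srebf1 instead. Each is the 250 bases before the start of transcription, 5′ to 3′ on the gene's strand, with matches to the E-box CACGTG and to the CCAAT box (ATTGG on the other strand) in capitals. The positions are chr4:53159896-53160145 on the minus strand for Abca1, chr13:45389492-45389741 on the plus strand for Mylip, and chr11:120824548-120824797 on the minus strand for Fasn.
Abca1: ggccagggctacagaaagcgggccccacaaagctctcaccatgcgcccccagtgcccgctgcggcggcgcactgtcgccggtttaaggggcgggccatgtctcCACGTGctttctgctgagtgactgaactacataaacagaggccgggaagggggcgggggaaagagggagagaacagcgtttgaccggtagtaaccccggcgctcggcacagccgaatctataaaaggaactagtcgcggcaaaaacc
Mylip: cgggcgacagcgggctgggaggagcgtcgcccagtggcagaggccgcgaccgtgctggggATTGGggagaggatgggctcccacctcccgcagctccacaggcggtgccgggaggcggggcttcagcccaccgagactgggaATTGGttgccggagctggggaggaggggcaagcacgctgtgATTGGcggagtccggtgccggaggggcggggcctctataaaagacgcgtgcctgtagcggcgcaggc
Fasn: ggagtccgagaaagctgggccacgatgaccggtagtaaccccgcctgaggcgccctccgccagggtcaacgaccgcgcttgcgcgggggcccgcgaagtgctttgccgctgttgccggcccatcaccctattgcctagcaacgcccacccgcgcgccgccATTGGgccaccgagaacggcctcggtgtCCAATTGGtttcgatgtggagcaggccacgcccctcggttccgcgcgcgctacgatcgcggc
The Abca1 sequence held 1 E-box, 147 bases before the start, and no CCAAT box. Mylip held 3 CCAAT boxes, at 190, 108 and 67 bases before the start, and no E-box. Fasn held 3 CCAAT boxes, at 90, 62 and 59 bases, of which the last 2 overlap on opposite strands. On either strand, none of the 3 held the nuclear receptor half-site AGGTCA or the sterol element TCACNCCAC. None held a DR4 pair in the form searched, half-sites RGKTCA 4 bases apart (R for A or G, K for G or T). Looser half-sites were not searched, so the stretch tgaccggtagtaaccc in the Abca1 and Fasn sequences was not assessed. Of 32536 promoters of the same length, 6.04% held CACGTG, 33.8% CCAAT, 14.04% AGGTCA, 1.04% TCACNCCAC and 0.068% a DR4 pair of that form. A match or its lack describes these letters in this window only.

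Abcg1 (ENSMUSG00000024030) had the widest range of the 8 genes, with its highest group mean 17.7 times its lowest. Its level in Mock was 7.02, 5.68 and 7.74 CPM, and with AOA it was 0.828, 0.816 and 0.872 CPM. With AOA and aspartate it was 7.70, 7.05 and 9.82 CPM. In these RNAs from whole cultures, fewer cells of a type and less RNA per cell cannot be told apart. The AOA libraries lay far below both other groups, and those with aspartate overlapped with Mock. The log2 fold change was -3.02 ± 0.22 (SE) for AOA relative to Mock, the value that chose the gene, and 3.28 ± 0.22 for aspartate added to AOA.

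With HT-DNA the level of Abcg1 was 3.64, 2.46 and 2.62 CPM. With HT-DNA plus AOA it was 0.575, 0.513 and 0.298 CPM, which rest on only 11, 10 and 5 counts. With HT-DNA, AOA and aspartate it was 6.09, 6.11 and 4.83 CPM. These 3 groups did not overlap, and aspartate brought Abcg1 above its level with HT-DNA alone in every library. The log2 fold changes were -2.61 ± 0.27 for AOA and 3.58 ± 0.25 for aspartate in HT-DNA–treated cells, and 0.97 ± 0.18 for HT-DNA, AOA and aspartate relative to HT-DNA. Leaving out single libraries with HT-DNA plus AOA gave -2.79 to -2.40 and 3.37 to 3.76 for the first pair of values. The response of Abcg1 to HT-DNA where AOA and aspartate were present was -0.53 ± 0.17 and did not pass the test (adjusted p = 0.108, edgeR quasi-likelihood test with Benjamini-Hochberg adjustment).

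Abca1 (ENSMUSG00000015243) was lower with AOA too, but by much less. It was at 71.2, 65.7 and 71.0 CPM in Mock, 50.2, 43.4 and 47.0 CPM with AOA, and 83.3, 77.9 and 80.0 CPM with AOA and aspartate. Every library with aspartate was above every Mock library. Under HT-DNA it was at 26.0, 38.0 and 28.4 CPM, with AOA at 29.0, 21.8 and 15.5 CPM, and with AOA and aspartate at 53.3, 59.5 and 59.1 CPM. HT-DNA alone and HT-DNA plus AOA overlapped, whereas all libraries with aspartate were above both.

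In HT-DNA–treated cells, aspartate raised Abca1 by a log2 fold change of 1.37 ± 0.16 over AOA alone (adjusted p = 1.27e-06, edgeR), and 1.18 to 1.61 without 1 of the libraries with HT-DNA plus AOA. This rise was 1.18 ± 0.10 with GC content and length corrected for (adjusted p = 9.95e-09, edgeR). The level with AOA and aspartate exceeded that with HT-DNA alone by 0.90 ± 0.15 (adjusted p = 0.000224, edgeR). The AOA fall was -0.48 ± 0.16 (adjusted p = 0.0199, edgeR) and rested on single libraries. It was -0.28 without replicate 3 of HT-DNA plus AOA (adjusted p = 0.0875, edgeR), -0.47 without its replicate 2 (adjusted p = 0.0556, edgeR), -0.72 without its replicate 1 (adjusted p = 0.000215, edgeR) and -0.30 without replicate 2 of HT-DNA (adjusted p = 0.134, edgeR).

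Per length, Abca1 stood 7.25 ± 0.85 times above Abcg1 in Mock (SD, n = 3), where exon length was taken from GENCODE vM21. The ratio within a library was 42.7, 37.4 and 37.9 with AOA, and 7.62, 7.79 and 5.74 with AOA and aspartate. It was 5.04, 10.9 and 7.64 with HT-DNA, 35.5, 29.9 and 36.5 with HT-DNA plus AOA, and 6.16, 6.86 and 8.62 with HT-DNA, AOA and aspartate. Both groups with AOA alone thus lay above all 4 other groups without overlap.

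**Figure D1:**
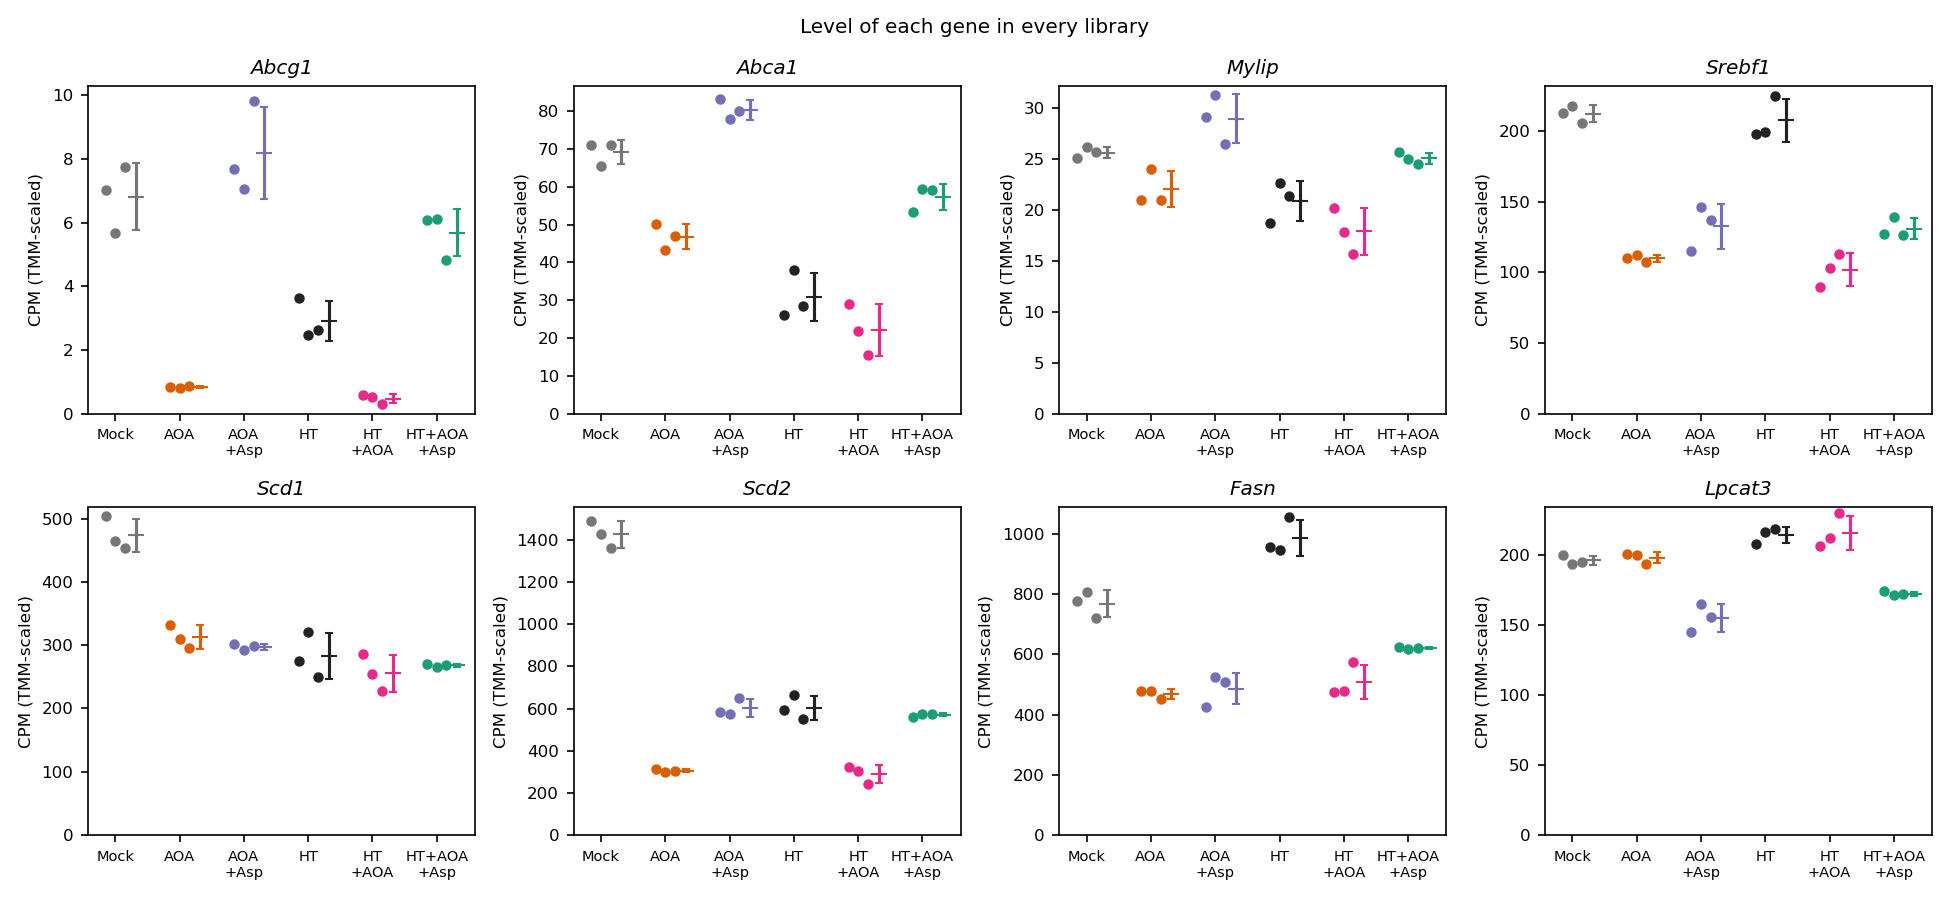
Level of each of the 8 genes in CPM (TMM-scaled counts; each panel has its own axis, from 0) in the 6 groups, with 1 point per library and a bar for the mean ± SD of 3 libraries. Abcg1 is near 0 in both groups with AOA alone and returns with aspartate (mean 8.19 CPM without and 5.68 CPM with HT-DNA), whereas Srebf1 with aspartate stays at means of 132.6 and 130.9 CPM, against 212.2 CPM in Mock.

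Mylip (ENSMUSG00000038175) ran in the same order as Abca1 over a narrower range, with its highest group mean 1.62 times its lowest. Its level was 25.1, 26.1 and 25.6 CPM in Mock, 21.0, 24.0 and 21.0 CPM with AOA, and 29.2, 31.3 and 26.5 CPM with AOA and aspartate. Under HT-DNA it was 18.7, 22.6 and 21.4 CPM, with AOA 20.2, 17.9 and 15.6 CPM, and with AOA and aspartate 25.6, 25.0 and 24.5 CPM. The libraries with HT-DNA, AOA and aspartate were above all 6 other HT-DNA libraries. Aspartate raised Mylip by 0.48 ± 0.10 over HT-DNA plus AOA (adjusted p = 0.000562, edgeR), and 0.40 to 0.58 without 1 library of that group.

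Relative to HT-DNA alone, Mylip with AOA and aspartate was higher by 0.26 ± 0.10 (adjusted p = 0.0335, edgeR), a call that was kept in 8 of 14 alternatives. The AOA value, -0.22 ± 0.10, did not pass the test (adjusted p = 0.0756, edgeR), but was -0.32 without replicate 1 of HT-DNA plus AOA (adjusted p = 0.0145, edgeR) and -0.28 once GC content and length were corrected for (adjusted p = 0.0191, edgeR). Over the 18 libraries, log2 CPM of Abca1 and Mylip had a Pearson r of 0.932, Abcg1 and Mylip 0.814 and Abcg1 and Abca1 0.792. These points share the 6 treatments, and the values are descriptions.

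Srebf1 (ENSMUSG00000020538) was lower in all 4 groups that received AOA. It was at 213.0, 217.8 and 205.8 CPM in Mock and at 198.1, 199.5 and 225.2 CPM with HT-DNA, which overlapped. With AOA it was at 110.3, 112.4 and 107.4 CPM, and with HT-DNA plus AOA at 89.8, 102.8 and 112.9 CPM. Aspartate moved it only part of the way back, to 115.0, 146.0 and 136.9 CPM without HT-DNA and to 127.1, 139.4 and 126.1 CPM with it. No library with AOA, with or without aspartate, reached the lowest library of Mock or HT-DNA.

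In HT-DNA–treated cells, AOA lowered Srebf1 by a log2 fold change of -1.03 ± 0.09 (adjusted p = 2.78e-08, edgeR), which is 2.04-fold. Aspartate raised it over HT-DNA plus AOA by 0.36 ± 0.09 (adjusted p = 0.00286, edgeR), and the level with both was still below HT-DNA alone by -0.67 ± 0.09 (adjusted p = 2.84e-05, edgeR). Without single libraries of HT-DNA plus AOA the first value ran from -1.11 to -0.95 and the aspartate value from 0.28 to 0.44. Once GC content and length were corrected for, the AOA value was smaller, at -0.70 ± 0.05 (adjusted p = 1.2e-09, edgeR). With the same correction, the difference between HT-DNA, AOA and aspartate and HT-DNA alone was -0.36 ± 0.05 (adjusted p = 4.13e-05, edgeR). Rai1 overlaps Srebf1 on the opposite strand and shares 1.38% of its 31-base sequences. The strand setting of the libraries is not given in the sources used here, so reads from the shared stretch cannot be told apart.

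Fasn (ENSMUSG00000025153) followed Srebf1 with AOA but not with HT-DNA. It was at 778.6, 808.7 and 719.8 CPM in Mock, 477.3, 477.3 and 450.5 CPM with AOA, and 427.0, 523.8 and 510.0 CPM with AOA and aspartate. The last 2 groups overlapped. With HT-DNA it was at 958.7, 946.0 and 1057 CPM, the highest of all groups, with HT-DNA plus AOA at 475.5, 477.9 and 575.4 CPM, and with aspartate added at 623.6, 617.9 and 623.2 CPM. In the HT-DNA groups no library overlapped between treatments.

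AOA lowered Fasn in HT-DNA–treated cells by -0.95 ± 0.09 (adjusted p = 3.58e-08, edgeR), or 1.94-fold, and by -1.05 to -0.91 without 1 of the libraries with HT-DNA plus AOA. Once GC content and length were corrected for, the AOA value was smaller, at -0.67 ± 0.06 (adjusted p = 3.96e-09, edgeR). With aspartate Fasn remained below HT-DNA alone by -0.67 ± 0.08 (adjusted p = 1.91e-05, edgeR). The rise with aspartate over HT-DNA plus AOA was 0.29 ± 0.08 (adjusted p = 0.00962, edgeR). It was 0.24 without replicate 2 of HT-DNA plus AOA (adjusted p = 0.052, edgeR), 0.38 without replicate 3 and 0.15 once GC content and length were corrected for (adjusted p = 0.0349, edgeR). Fasn was also the only one of the 8 genes called between HT-DNA, AOA and aspartate and the same treatment without HT-DNA, being higher with HT-DNA by 0.35 ± 0.08 (adjusted p = 0.0233, edgeR). This call was lost when any library with HT-DNA, AOA and aspartate was left out, and without replicate 1 or 3 of AOA and aspartate, where the value ran from 0.27 to 0.39. Of the genes tested, 1.93% were higher and 1.52% lower in that comparison. Over the 18 libraries Srebf1 and Fasn had a Pearson r of 0.895.

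Scd2 (ENSMUSG00000025203) was far above all other groups in Mock, at 1492, 1429 and 1364 CPM. With AOA it was at 311.8, 301.1 and 305.4 CPM, and with AOA and aspartate at 582.8, 576.0 and 650.0 CPM. HT-DNA alone gave 592.0, 663.9 and 549.7 CPM, HT-DNA plus AOA 321.9, 303.5 and 241.8 CPM, and HT-DNA, AOA and aspartate 561.4, 575.6 and 575.1 CPM. Mock stood highest, both groups with AOA but no aspartate stood lowest, and the 3 remaining groups lay between them. HT-DNA alone overlapped with both groups with aspartate, which did not overlap with each other.

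The log2 fold change of Scd2 with AOA was -2.22 ± 0.09 relative to Mock, and in HT-DNA–treated cells AOA lowered it by -1.06 ± 0.09 (adjusted p = 2.07e-08, edgeR). Given as a description, the second value minus the first was 1.16 ± 0.13. Aspartate raised Scd2 over HT-DNA plus AOA by 0.98 ± 0.09 (adjusted p = 8.24e-08, edgeR), and the level reached differed from HT-DNA alone by -0.08 ± 0.09 (adjusted p = 0.506, edgeR). Leaving out single libraries with HT-DNA plus AOA gave -1.14 to -0.95 for AOA and 0.87 to 1.07 for aspartate.

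Scd1 (ENSMUSG00000037071), the paralog of Scd2, was also highest in Mock, at 503.7, 463.9 and 453.3 CPM, but differed little among the other groups. It was at 332.6, 309.6 and 295.1 CPM with AOA, and at 301.4, 292.4 and 298.3 CPM with AOA and aspartate. With HT-DNA it was at 275.0, 321.6 and 250.0 CPM, with HT-DNA plus AOA at 285.4, 254.2 and 227.3 CPM, and with aspartate added at 269.8, 264.9 and 269.2 CPM. All 5 groups overlapped with their neighbors in the order of means. Among the HT-DNA groups no comparison passed the test, with log2 fold changes of -0.14 ± 0.09 for AOA, 0.07 ± 0.09 for aspartate and -0.07 ± 0.09 for both relative to HT-DNA (adjusted p = 0.202, 0.551 and 0.51, edgeR). Once GC content and length were corrected for, the first was -0.24 ± 0.06 (adjusted p = 0.00119, edgeR) and the third -0.26 ± 0.06 (adjusted p = 0.00122, edgeR), and the AOA value was -0.23 without replicate 1 of HT-DNA plus AOA (adjusted p = 0.0301, edgeR). Without single libraries of that group the AOA value ran from -0.23 to -0.07 and the aspartate value from -0.01 to 0.15.

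The share of Scd2 in the summed desaturase level per length within each library set apart Mock and both groups with AOA but no aspartate. The other groups overlapped. This share was 73.0% ± 0.39 in Mock (SD, n = 3), 46.8% ± 1.25 with AOA and 64.4% ± 1.47 with AOA and aspartate. With HT-DNA it was 65.7% ± 0.72, with HT-DNA plus AOA 50.2% ± 1.44, and after aspartate was added to these 65.6% ± 0.49. AOA without aspartate thus took Scd2 from the larger part of the pair to near parity in both settings. The libraries with AOA but no aspartate did not overlap with those of any other group. Of their 31-base sequences, 5.18% of those of Scd1 occur in Scd2 and 4.63% of those of Scd2 in Scd1, so a small part of the reads could be split between them.

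**Figure D2:**
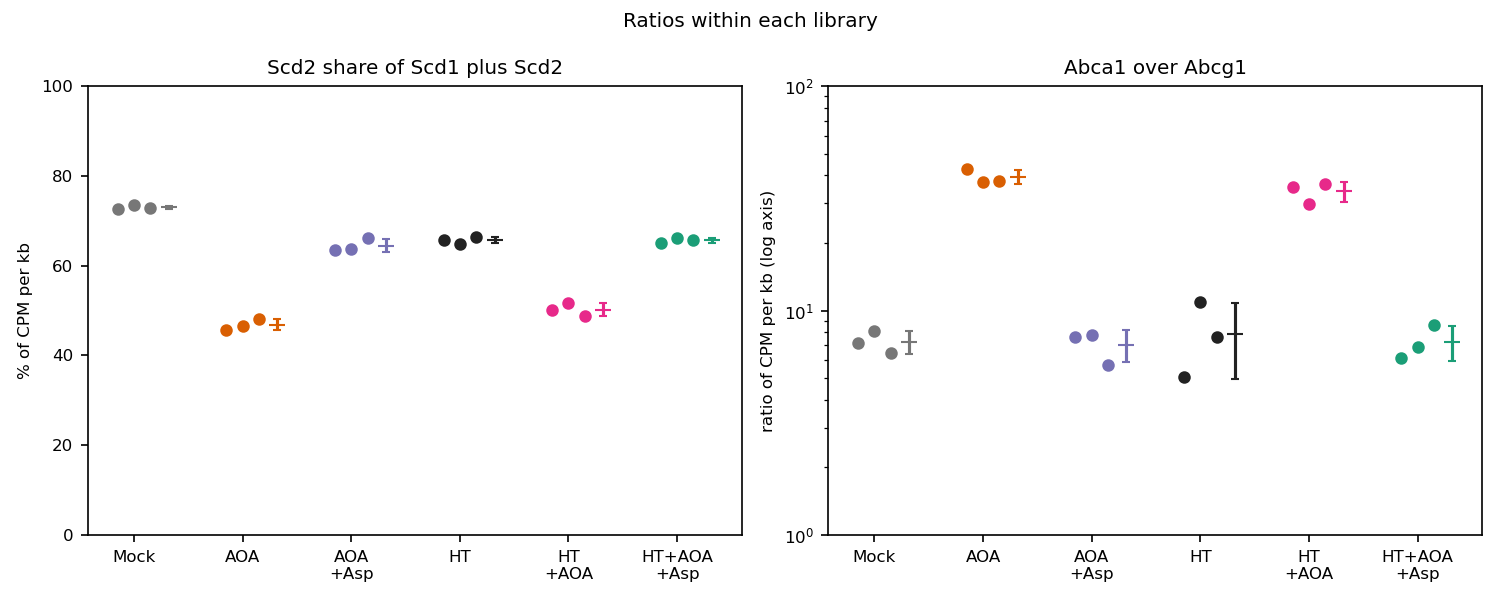
Left, the share of Scd2 in the summed level of Scd1 and Scd2 (percent of CPM per kilobase of exon); right, the ratio of Abca1 to Abcg1 per kilobase on a log axis. Points are libraries in the 6 groups and bars the mean ± SD of 3. The groups with AOA but no aspartate sit at 46.8% and 50.2% for Scd2 against 64.4% to 73.0% elsewhere, and at ratios of 39.4 and 34.0 against 7.05 to 7.85.

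Lpcat3 (ENSMUSG00000004270) did not share the fall with AOA. It was at 199.9, 193.5 and 194.8 CPM in Mock and 201.0, 200.1 and 193.6 CPM with AOA, and at 145.0, 164.7 and 155.6 CPM with AOA and aspartate. With HT-DNA it was at 207.9, 216.4 and 218.7 CPM, with HT-DNA plus AOA at 206.5, 211.8 and 229.7 CPM, and with aspartate added at 174.0, 171.3 and 172.0 CPM. Every library with aspartate was below every library without it. In HT-DNA–treated cells aspartate lowered Lpcat3 by -0.32 ± 0.06 relative to HT-DNA plus AOA (adjusted p = 0.000236, edgeR), and the AOA value was 0.01 ± 0.06 (adjusted p = 0.901, edgeR). Without single libraries of HT-DNA plus AOA they ran from -0.36 to -0.28 and from -0.04 to 0.04. HT-DNA, AOA and aspartate differed from HT-DNA alone by -0.31 ± 0.06 (adjusted p = 0.000546, edgeR). Once GC content and length were corrected for, these aspartate values were -0.21 ± 0.04 (adjusted p = 0.000407, edgeR) and -0.11 ± 0.04 (adjusted p = 0.0443, edgeR). Emg1 overlaps Lpcat3 on the opposite strand and shares 9.10% of its 31-base sequences, and without a known strand setting their shared reads cannot be told apart.

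Counted together, AOA in HT-DNA–treated cells lowered 5 of the 8 genes (4 of the 7 without Abcg1) where 22.7% of the 14263 genes tested were lower and 22.8% higher. None was higher by edgeR, also at an unadjusted p under 0.05, or by DESeq2. The median log2 fold change was -0.48 for the 7 genes and 0.02 for all genes. The count was 7 without replicate 1 of HT-DNA plus AOA and 4 without replicate 2 or 3.

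Aspartate added to HT-DNA plus AOA raised 6 of the 8 genes (5 of the 7 without Abcg1) and lowered Lpcat3, where 23.7% of all genes were higher and 23.9% lower. Leaving out single libraries of HT-DNA plus AOA gave 6 or 7 calls. Relative to HT-DNA alone, the libraries with AOA and aspartate were higher in 3 genes (Abcg1, Abca1 and Mylip) and lower in 3 (Srebf1, Fasn and Lpcat3), or 2 and 3 of the 7 without Abcg1, whose value is a description. Of all genes, 23.2% were higher and 23.5% lower. Scd1 and Scd2 did not differ from HT-DNA alone past the threshold. Once GC content and length were corrected for, Abca1 was 0.57 ± 0.09 above HT-DNA alone (adjusted p = 0.000167, edgeR). Over 13909 genes with a known GC content, Spearman's rho between log2 fold change and GC content was -0.317 for AOA, -0.115 for aspartate and -0.516 for both in HT-DNA–treated cells. With length it was 0.0004, 0.282 and 0.319 in the same order. The part of these trends in the values of single genes was not tested beyond the corrected values given.

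**Figure D3:**
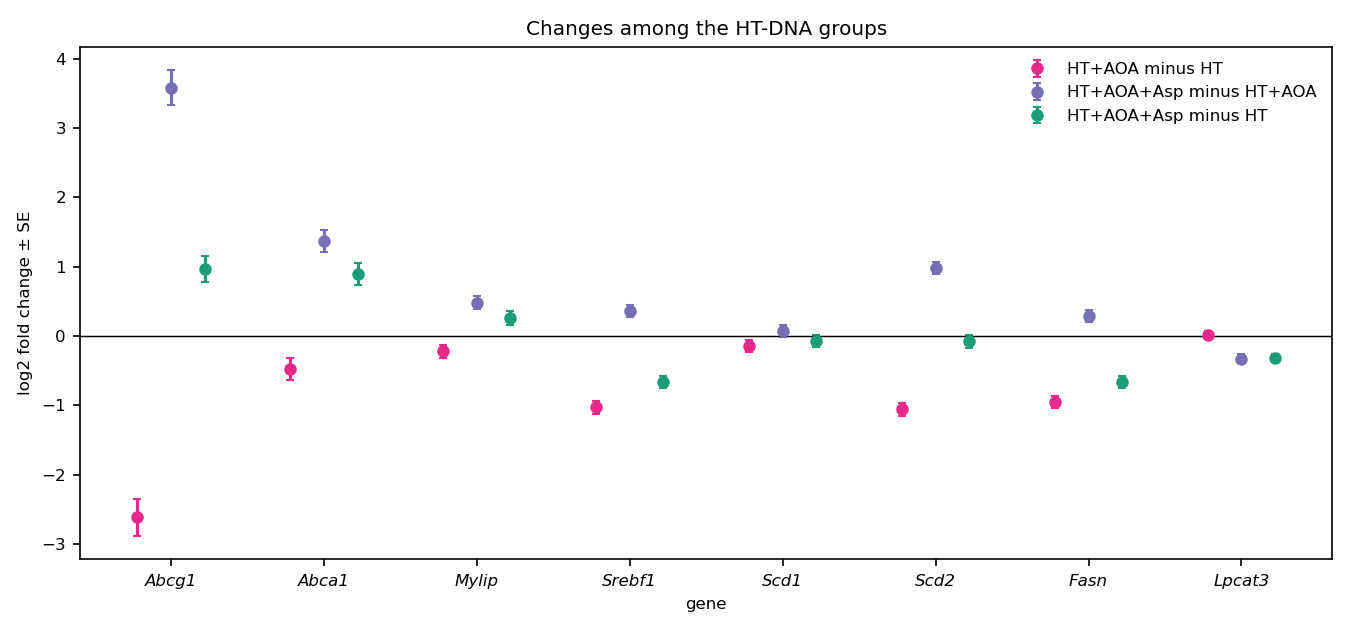
Log2 fold change ± SE of each gene between the HT-DNA groups, for AOA added (HT+AOA minus HT), aspartate added to AOA (HT+AOA+Asp minus HT+AOA) and both relative to HT-DNA alone. After aspartate, Abcg1, Abca1 and Mylip lie above 0 relative to HT-DNA alone (0.97, 0.90 and 0.26), Scd1 and Scd2 near 0, and Srebf1, Fasn and Lpcat3 below it (-0.67, -0.67 and -0.31).

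HT-DNA alone, described relative to Mock because the Mock libraries entered the choice, went with lower levels of both transporters and both desaturases. The log2 fold change was -1.23 ± 0.18 for Abcg1, -1.17 ± 0.15 for Abca1, -1.25 ± 0.09 for Scd2 and -0.75 ± 0.09 for Scd1. Once GC content and length were corrected for, these values were -1.21, -0.80, -1.14 and -0.56 in the same order. Mylip had -0.29 ± 0.10. Srebf1, at -0.03 ± 0.09, overlapped with Mock and was -0.21 ± 0.05 once GC content and length were corrected for, and Fasn was higher by 0.36 ± 0.08. With library totals in place of TMM, the median of all genes was -0.116 for AOA and -0.118 for HT-DNA relative to Mock on the log2 scale, against 0.02 and -0.01 with TMM. None of the values for these 8 genes that passed a test in this text changed direction with that scaling.

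The remaining genes of the pathway came from 8 lists of 114 genes that hold none of the 8 above, of which 90 passed the filter. The lists were chosen with earlier results of these data known, so their counts are descriptions. Genes named for a large AOA change in HT-DNA–treated cells were picked from that comparison, so their adjusted p there is a description too. The same holds for their adjusted p in any other comparison that uses the libraries with HT-DNA alone or with HT-DNA plus AOA. With AOA relative to Mock, 40 of the 90 were lower and 11 higher, where 23.2% of all genes were lower and 22.5% higher. With HT-DNA present, AOA lowered 36 and raised 15. Aspartate added to HT-DNA plus AOA raised 27 and lowered 20. The shares of all genes for the last 2 comparisons are those given above. Of the calls named below that use the libraries with HT-DNA plus AOA, those of Abca8b and Acaca with AOA and that of Lpl with aspartate were lost when 1 of these libraries was left out. Without replicate 1 the AOA value of Ncoa1 was 0.37 and that of Acaca -0.53, and the aspartate value of Chka was -0.46, with the calls kept.

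The genes of both LXR receptors were detected in every group, with means of 30.25 to 39.7 CPM for Nr1h2 and 17.3 to 22.8 CPM for Nr1h3, and AOA relative to Mock gave -0.04 ± 0.09 for each (adjusted p = 0.727 and 0.76, edgeR). In HT-DNA–treated cells AOA lowered Nr1h2 by -0.32 ± 0.09 (adjusted p = 0.00593, edgeR), a value that was 0.02 once GC content and length were corrected for (adjusted p = 0.837, edgeR). With HT-DNA, AOA and aspartate both receptors were below HT-DNA alone, by -0.39 ± 0.09 for Nr1h2 (adjusted p = 0.00169, edgeR) and -0.40 ± 0.09 for Nr1h3 (adjusted p = 0.0014, edgeR). Over all genes with a known GC content, log2 fold changes in this comparison ran against GC content (Spearman's rho -0.516). Both receptor values are given without the correction for GC content and length, so how much of that trend they hold is not shown. Their partner Rxra fell with AOA, by -0.52 ± 0.08 relative to Mock (adjusted p = 2e-05, edgeR) and by -0.78 ± 0.08 in HT-DNA–treated cells (adjusted p = 1.2e-07, edgeR), and rose with aspartate by 0.49 ± 0.08 (adjusted p = 3.92e-05, edgeR). The coactivator Ncoa1 rose by 0.58 ± 0.13 with AOA in HT-DNA–treated cells (adjusted p = 0.00122, edgeR). Of the 9 genes of receptors, partners and corepressors, 3 fell and 1 rose in that comparison, where 22.7% of all genes fell and 22.8% rose. Their median was -0.15.

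Among genes of oxysterol synthesis and turnover, 5 of 10 passed the filter. Ch25h, which makes 25-hydroxycholesterol, had 0 counts in all 18 libraries. The acyltransferases Soat1 and Soat2, which store cholesterol as esters, rose with AOA. Soat2 was at a mean of 11.6 CPM in Mock, 22.2 CPM with AOA, 8.11 CPM with HT-DNA, 24.6 CPM with HT-DNA plus AOA and 9.19 CPM with aspartate added. Its log2 fold change was 1.60 ± 0.10 for AOA in HT-DNA–treated cells (adjusted p = 5.67e-10, edgeR) and -1.42 ± 0.10 for aspartate (adjusted p = 3.74e-09, edgeR). Soat1 rose by 0.85 ± 0.09 (adjusted p = 3.63e-07, edgeR) and fell with aspartate by -0.40 ± 0.09 (adjusted p = 0.00134, edgeR). Hsd3b7, an enzyme of oxysterol and bile acid metabolism, was low and went the other way, at 1.65 CPM with HT-DNA and 0.79 CPM with AOA added (-1.06 ± 0.28, adjusted p = 0.00443, edgeR).

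Other known LXR targets did not move as 1 group. Of 10 tested, 3 fell and 3 rose with AOA in HT-DNA–treated cells, with a median of 0.04. These counts are close to the shares of all genes, 22.7% lower and 22.8% higher. Apoe, the apolipoprotein of cholesterol transport, fell from a mean of 17.2 to 4.73 CPM (-1.86 ± 0.16, adjusted p = 1.75e-08, edgeR) and rose with aspartate to 8.33 CPM (0.82 ± 0.16, adjusted p = 0.000488, edgeR). Lpl (lipoprotein lipase) and Arl4c, a small GTPase, rose with AOA by 0.61 ± 0.11 and 0.40 ± 0.10 (adjusted p = 0.000182 and 0.0031, edgeR), and both fell with aspartate, by -0.32 ± 0.11 and -0.67 ± 0.10 (adjusted p = 0.0217 and 3.65e-05, edgeR). With both AOA and aspartate Apoe ended below HT-DNA alone (-1.04 ± 0.15, adjusted p = 4.37e-05, edgeR). The aspartate value of Lpl was -0.18 without replicate 1 of HT-DNA plus AOA (adjusted p = 0.114, edgeR). Of the other ABCA and ABCG transporters, 6 were tested, and 2 rose and 1 fell with AOA in HT-DNA–treated cells, against the same shares of all genes. Abca5 rose there by 0.77 ± 0.14 (adjusted p = 0.000207, edgeR), and Abca8b rose by 0.94 ± 0.34 at about 1 CPM (adjusted p = 0.0319, edgeR), a call lost without replicate 1 or 2 of HT-DNA plus AOA (0.68 and 0.95).

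Genes of SREBP processing fell with AOA relative to Mock in 4 of 6 cases, where 23.2% of all genes fell. Insig1, which retains SREBP in the endoplasmic reticulum and is itself a target of SREBP2, was at a mean of 181.9 CPM in Mock and 35.4 CPM with AOA (-2.36 ± 0.08, adjusted p = 3.5e-14, edgeR). With HT-DNA present it fell from 114.7 to 47.8 CPM (-1.26 ± 0.07, adjusted p = 1.18e-10, edgeR) and rose to 83.2 CPM with aspartate (0.80 ± 0.07, adjusted p = 7.02e-08, edgeR). Its homolog Insig2 fell with AOA relative to Mock by -0.52 ± 0.11 (adjusted p = 0.000528, edgeR), and its value with HT-DNA was 0.27 ± 0.11 (adjusted p = 0.0502, edgeR). Srebf2, which encodes SREBP2, fell with AOA relative to Mock by -0.33 ± 0.07 (adjusted p = 0.00108, edgeR) and, unlike Srebf1, fell again with aspartate in HT-DNA–treated cells (-0.36 ± 0.07, adjusted p = 0.00052, edgeR). Scap had 0.16 ± 0.11 with AOA relative to Mock (adjusted p = 0.213, edgeR).

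Of 20 other genes of fatty acid synthesis and desaturation, 8 fell and 2 rose with AOA relative to Mock, where 23.2% of all genes fell and 22.5% rose. In HT-DNA–treated cells 7 fell and 4 rose with AOA, and 6 rose and 3 fell with aspartate. The shares of all genes there were 22.7% lower and 22.8% higher with AOA, and 23.7% higher and 23.9% lower with aspartate. Elovl6, the elongase that acts after Fasn, was at 96.8 CPM in Mock, 30.4 CPM with AOA, 44.5 CPM with HT-DNA, 28.6 CPM with HT-DNA plus AOA and 51.2 CPM with aspartate added. Its fall in HT-DNA–treated cells was -0.64 ± 0.14 (adjusted p = 0.00121, edgeR) and its rise with aspartate 0.84 ± 0.14 (adjusted p = 0.000104, edgeR). Acaca (acetyl-CoA carboxylase) fell by -0.33 ± 0.13 with AOA there (adjusted p = 0.0494, edgeR), with overlapping libraries and no call without replicate 2 or 3 of HT-DNA plus AOA (-0.30 and -0.19), and rose with aspartate by 0.53 ± 0.13 (adjusted p = 0.00345, edgeR). Acly (ATP citrate lyase) had -0.14 ± 0.06 (adjusted p = 0.063, edgeR). Mid1ip1, which activates acetyl-CoA carboxylase, fell by -1.34 ± 0.34 at about 1 CPM (adjusted p = 0.00345, edgeR), and the mitochondrial citrate carrier Slc25a1 by -0.44 ± 0.09 (adjusted p = 0.000423, edgeR).

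Among 15 genes of phospholipid and triglyceride synthesis, 6 fell and 2 rose with AOA in HT-DNA–treated cells, where 22.7% of all genes fell and 22.8% rose. Lpcat1, a lysophosphatidylcholine acyltransferase like Lpcat3, fell by -1.24 ± 0.07 (adjusted p = 1.65e-10, edgeR) and rose with aspartate by 0.64 ± 0.07 (adjusted p = 1.16e-06, edgeR), the reverse of the aspartate value of Lpcat3. Lpin1, a phosphatidate phosphatase, was at 27.9 CPM in Mock, 6.68 CPM with AOA and 5.13 CPM with HT-DNA, and HT-DNA plus AOA left 2.16 CPM (-1.23 ± 0.22 relative to HT-DNA, adjusted p = 0.000147, edgeR). Chka (choline kinase) rose with AOA by 0.77 ± 0.14 (adjusted p = 0.000218, edgeR) and fell with aspartate by -0.70 ± 0.14 (adjusted p = 0.000633, edgeR).

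Sterol synthesis and LDL uptake, the program of SREBP2, held the most calls in 1 direction. Of 19 genes tested, 16 fell with AOA relative to Mock, with a median of -0.865. Under HT-DNA 13 fell and 1 rose, with a median of -0.39, and aspartate raised 7 and lowered 3 (23.7% and 23.9% of all genes). With HT-DNA present, AOA lowered Mvd by -1.99 ± 0.13 (adjusted p = 4.71e-10, edgeR), Dhcr7 by -1.63 ± 0.11 (adjusted p = 4.82e-10, edgeR) and Hmgcs1 by -1.05 ± 0.12 (adjusted p = 1.05e-06, edgeR). With aspartate these 3 rose by 0.85 to 1.14.

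**Figure D4:**
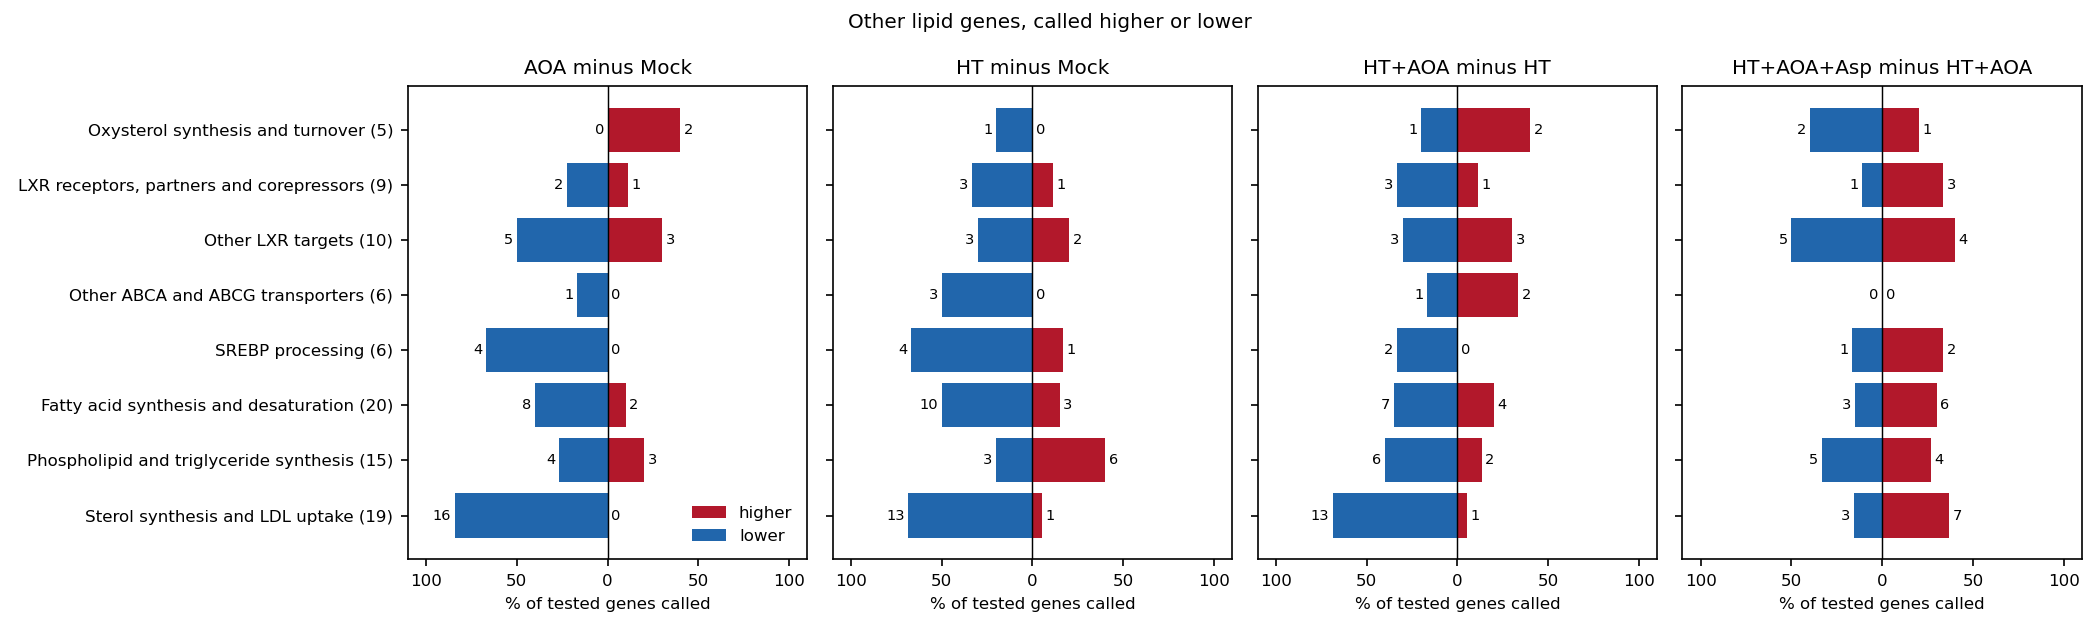
Share of the tested genes of each list (number tested in parentheses) called higher (right, red) or lower (left, blue) in 4 comparisons, in percent, with the number of genes at the end of each bar. Of the 19 sterol genes 16 are lower with AOA relative to Mock and 13 in HT-DNA–treated cells, while the 10 other LXR targets are split in every panel.

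HT-DNA relative to Mock lowered 40 of the 90 pathway genes and raised 14, where 24.0% of all genes were lower and 24.2% higher. Fatty acid synthesis had 10 lower and 3 higher of 20, and sterol synthesis and LDL uptake 13 lower and 1 higher of 19. Lpin1 fell by -2.44 ± 0.17 (adjusted p = 1.27e-08, edgeR), Elovl6 by -1.12 ± 0.14 (adjusted p = 8.34e-06, edgeR) and Hmgcs1 by -1.11 ± 0.12 (adjusted p = 1.52e-06, edgeR). Apoe rose by 0.73 ± 0.14 (adjusted p = 0.000536, edgeR), but by 0.32 once GC content and length were corrected for (adjusted p = 0.0755, edgeR). Spearman's rho between log2 fold change and GC content over 13909 genes was 0.354 in this comparison, and that with length was -0.35.

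Aspartate added to AOA without HT-DNA raised 27 of the 90 genes and lowered 20, where 23.4% of all genes were higher and 22.8% lower. The effect of AOA with HT-DNA minus its effect without HT-DNA was higher in 24 of the 90 genes and lower in 1, where 7.23% of all genes were higher and 8.26% lower. The 24 included 12 of the 19 sterol genes and 7 of the 20 genes of fatty acid synthesis. The count depended on 1 library, being 53 (34 higher and 19 lower) without replicate 3 of HT-DNA plus AOA.

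Most like Abcg1 over the 18 libraries, by Pearson correlation of log2 CPM among genes averaging 5 CPM or more, were Lipa (0.987), Neurl1b (0.986), Ap5m1 (0.985), Nova1 (0.980) and Npepps (0.979). Most like Srebf1 were Unc5a (0.983), C1qtnf6 (0.975), Cic (0.974), Rapgef3 (0.974) and S1pr3 (0.969). None of the 8 genes was among them.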

How the data were processed

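RNA was extracted from L929 cells with TRIzol and sequenced, with 3 libraries in each of 6 groups. The authors deposited 1 table of expected counts per gene (11.6% of values not whole). The aligner, the counter, the genome build and the strand setting are not given in the sources used here. The deposited group means were not used.

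Counts were rounded to whole numbers, and genes were kept by filterByExpr (minimum count 10, minimum total 15), which left 14263 of 57180. All 6 groups entered 1 fit with TMM scaling and edgeR's robust quasi-likelihood test (edgeR 4.0.16, R 4.3.3), with Benjamini-Hochberg adjustment over all genes tested and a threshold of 0.05. Fold changes are log2 values ± SE, and CPM were computed from these counts. The fitting was tested on simulated data.

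The members and lists were chosen with earlier results of these data known. Pathway genes named are 12 fixed by name and, per list, up to 3 with the largest absolute log2 fold change among those called for AOA in HT-DNA–treated cells, whose libraries did not overlap and whose higher mean was 1 CPM or more. Alternatives were DESeq2 1.42.0, other scalings and filters, a replicate block, only the libraries compared, a fold threshold and each replicate left out. A correction for GC content and length (loess trend of log2 CPM in each library, GENCODE vM21, 97.5% of genes tested with a value) was added after seeing the data. Of the markers, those of adipocytes summed to 218 to 310 CPM, nearly all of it Fabp4 (group means of 239.0 to 287.0 CPM). Adipoq and Plin1 were under 0.1 CPM on average. Markers of epithelial and endothelial cells summed to at most 0.679 CPM. Results of some genes that this rule selects are not reported here.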

Additional observations from a re-analysis of the deposited data

Results flagged for a closer look

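The effect of AOA with HT-DNA minus its effect without HT-DNA was computed for the pathway genes named. Those that passed the threshold are given here (edgeR quasi-likelihood test, adjusted over all genes). Soat2, Elovl6, Lpcat1 and Abca8b were named for a large AOA change with HT-DNA. That change is part of this difference, so their adjusted p is a description. Insig1 met the same rule but was also fixed by name, as were Hmgcs1 and Insig2. The difference on the log2 scale was 1.10 ± 0.10 for Insig1 (adjusted p = 4.27e-06), 0.96 ± 0.17 for Hmgcs1 (adjusted p = 0.00149), 1.04 ± 0.20 for Elovl6 (adjusted p = 0.00282) and 0.79 ± 0.15 for Insig2 (adjusted p = 0.00279), all of which were lower with AOA relative to Mock. It was 0.66 ± 0.14 for Soat2 (adjusted p = 0.00616), which was higher with AOA in both settings, and -0.46 ± 0.10 for Lpcat1 (adjusted p = 0.00756), whose fall was larger with HT-DNA. For Abca8b, at about 1 CPM, it was 1.46 ± 0.46 (adjusted p = 0.0374) and passed neither without replicate 1 or 2 of HT-DNA plus AOA (1.21 and 1.47) nor once GC content and length were corrected for (1.15, adjusted p = 0.0623).

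For Scd1, every library with AOA and aspartate was below the mean of AOA without HT-DNA, and every library with HT-DNA, AOA and aspartate was above the mean of HT-DNA plus AOA. The aspartate values differed by 0.14 ± 0.12 on the log2 scale, which did not pass the test (adjusted p = 0.801, edgeR). Once GC content and length were corrected for, both aspartate values were negative (-0.13 without and -0.02 with HT-DNA).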

How the results depend on the processing

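Of the values of the 8 genes under all alternatives, 405 kept their direction and side of the threshold, 17 lost a call, 11 gained one and 11 that were not called changed sign, while 0 called values reversed. A fold threshold of 1 on the log2 scale left 3 of the 8 genes for AOA and 2 for aspartate in HT-DNA–treated cells, and 0 for both relative to HT-DNA and for HT-DNA in the presence of AOA and aspartate. The last comparison, with 1 call, had 2 with DESeq2, 2 with no filter, 3 with only the libraries compared and 2 with the correction for GC content and length. Leaving out 1 replicate gave 4 to 7 calls for AOA, 6 to 7 for aspartate, 5 to 6 for both relative to HT-DNA and 0 to 1 for the last. For the pathway genes the fold threshold left 14 for AOA relative to Mock, 10 for aspartate added to AOA, 5 for HT-DNA relative to Mock, 12 and 8 for AOA and aspartate in HT-DNA–treated cells, and 4 for the difference between AOA effects. With only the libraries compared, the counts in HT-DNA–treated cells were 31 for AOA (51 in the fit of all groups) and 30 for aspartate (47). Leaving out 1 replicate gave 40 to 48, 33 to 44, 45 to 50, 38 to 58, 35 to 59 and 18 to 53 in the same order of comparisons. The correction for GC content and length reversed Abca5 for aspartate with HT-DNA (-0.28), Nr1h2 (0.018) and Srebf2 (0.069) for AOA with HT-DNA, and for HT-DNA relative to Mock Acaca (0.17), Lpl (0.13), Mvd (-0.40), Nr1h2 (-0.20), Nr1h3 (-0.21), Slc25a1 (-0.10) and Soat1 (0.25); the cause was not tested. With library totals in place of TMM, the share of higher genes among all calls went from 49.1% to 32.1% for AOA relative to Mock, from 50.2% to 35.2% for HT-DNA relative to Mock, from 50.7% to 62.2% for aspartate added to AOA, from 49.8% to 62.2% for aspartate with HT-DNA and from 46.7% to 64.5% for the difference between AOA effects. Replicate numbers did not pair the libraries, since deviations of same-numbered libraries correlated at -0.104 to 0.278 and 9 of 18 libraries correlated best with their own number. A replicate block gave 5, 7, 6 and 1 calls for the 8 genes, and 51, 47, 54, 49, 46 and 27 for the pathway genes in the order above. Abcg1 was not tested where at least 10 counts were required in every library, since replicate 3 of HT-DNA plus AOA held 5.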
